A study of Saccharomyces cerevisiae with 6 samples.

Results

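Many yeast genes begin transcription at more than 1 site, so that a single gene yields mRNAs whose leaders, which precede the start codon, differ by a few bases at the 5′ end. In a pool of 6962 leader RNAs from 4134 genes of budding yeast (Saccharomyces cerevisiae), 1328 genes were represented by exactly 2 RNAs, and for 153 of these genes (306 RNAs) the leaders differed in length by 12 nucleotides (nt) or less. These 153 pairs were taken by the leader lengths in their names, and the rule uses no measured value, although it was set with earlier results of these data known. No neighbouring leaders of a gene in the pool lay closer than 11 nt, so 78 pairs differed by 11 nt and 75 by 12 nt. The shorter leader had a median of 32 nt (14 to 100 nt) and the longer a median of 44 nt (26 to 111 nt).

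The RNAs were transcribed with T7 RNA polymerase, capped and incubated in a yeast translation extract, and fractions were then taken from a sucrose gradient. The labels name neither the strain behind the extract nor separate extracts for the replicates, and the p-values therefore rest on a spread among libraries that may be technical. Of 6 libraries, 3 held RNA of the 80S fraction, in which both ribosomal subunits are joined on the RNA, 2 held RNA of a fraction that the labels call untranslated, and 1 held the input pool. Both fractions went through phenol and chloroform extraction and a biotin pulldown, whereas the pulldown label of the input names the extraction alone, so the pulldown and the fraction cannot be told apart in comparisons with the input.

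Leaders matter for initiation because the small ribosomal subunit usually joins an mRNA at its cap and scans through the leader until it meets a start codon, where the large subunit joins. Bases, folds and upstream ATG triplets in a leader are known to change how often this succeeds. A pair of RNAs that share the 3′ part of the leader and differ by 11 or 12 nt at the cap places the contrast in a very short stretch of sequence.

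The added stretches are shown for the pairs with the widest separation of the fractions, with the bases found only in the longer RNA in capitals and the shared part, up to 30 bases in all, in lower case. Sequences were read from the reference genome R64 (RefSeq) upstream of the annotated start codon, 5′ to 3′ and as DNA, for 152 of the 153 pairs. Whether the synthesised RNAs carry exactly these bases was not examined. The remaining pair, YLR428C, matched no coding sequence of that reference. In the first 5 pairs the longer RNA was poorer in 80S relative to untranslated RNA than the shorter one.
EFB1: ACTGAAGAGTCCaaccgaatatatacacac
HSP60: AAGAAAATTCCCacgagaaaacatcataag
CUL3: AACTCAAATCTgaaattagggctactat
FUR1: ATATATTATCCaaacaaagggtctttcgtt
RCN1: AAGCAATAAACCaaccgatatataaaacac

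In the next 5 pairs the longer RNA was the richer one in 80S relative to untranslated RNA.
OST5: CAAAACATAAGCagtgagagatatccctgc
QCR7: AGAATATTAGTaactgtaattaaacgttcc
YBR197C: AAGATGAAATGTatgttgctggcacgaacg
GDH3: ATATAGGGAAGTagcaacagtcaccgaaaa
SHC1: GAATAAAAAATTgtacttggaaaaaagaat

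For a further 3 pairs both RNAs were distributed nearly alike.
VPS55: ACACACACACACacacacacacacgtctaa
LYS20: AACAAACAAAGGaaggaccctgtattgttt
ARC15: AGAGAAGACTCaacacaacacacgcgaacg

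In the reference sequence of 149 of 152 pairs the last capital letter, the base just before the start of the shorter RNA, was C or T. By the same sequence the shorter RNA began with A in 125. The longer RNA began with A in 114, with C or T just upstream in 139. These shares were not computed for the other leaders of the pool. The added bases were 46.0% A, 19.7% T, 18.1% G and 16.1% C, against 39.1% A, 26.3% T, 17.3% G and 17.4% C over the leaders of the whole pool.

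The share of pairs in which the 2 RNAs were partitioned differently between the fractions was close to that of the pool as a whole. The values deposited were FPKM, fragments scaled to RNA length and to the reads of the library. Within each library, log2(FPKM + 1) of the longer RNA minus that of the shorter was formed, which removes the scaling of the library, and this difference was compared between fractions with limma over all 2008 genes with 2 or more leaders. Of the 153 pairs, 101 (66.0%) differed between 80S and untranslated RNA at a Benjamini-Hochberg adjusted p under 0.05, against 68.1% of all 2008 pairs. The longer leader had the higher 80S to untranslated ratio in 53 pairs and the lower in 48, against 34.5% and 33.6% of all pairs. The median size of the difference was 1.02 on the log2 scale, or 2.02-fold, against 1.11 for all pairs, and the signed median was -0.04 against 0.01. The difference passed the threshold and reached 2-fold in 77 pairs (50.3%, against 54.4% of all pairs), 4-fold in 29 (19.0%, against 23.4%) and 8-fold in 11 (7.19%, against 8.27%). All 101 called pairs were among the 122 (79.7%, against 78.9% of all pairs) in which the differences of the 3 80S libraries lay on 1 side of both untranslated libraries.

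Within a library the 2 RNAs of a gene were far from equal in abundance. The median ratio of the more to the less abundant RNA was between 1.71-fold and 1.89-fold in the fractions and 2.09-fold in the input, and the longer RNA was the more abundant in 66 of 153 pairs of the input and in 69 to 80 pairs of the other libraries. Ratios of 10-fold or more occurred in 4 to 10 pairs of a fraction library and in 11 of the input. The imbalance was closely repeated within a fraction: across the 153 pairs, which share these libraries, Pearson's r of the longer-to-shorter log2 difference lay between 0.975 and 0.980 for the 80S libraries and was 0.923 for the untranslated libraries, whereas it lay between 0.402 and 0.470 for an 80S with an untranslated library. The median SD between replicates of the log2 difference was 0.17 in 80S and 0.27 in untranslated RNA. Median FPKM of the members ranged from 1924 to 3723 over libraries and RNA lengths. The FPKM of the members lay between 43.0 and 44646, and the read depth behind them is unknown. How reads in the shared part were divided between the 2 RNAs of a gene is not given in the sources used here.

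Among the pairs in which the added bases went with less 80S, EFB1, the exchange factor of translation elongation factor 1, had the largest difference (leaders of 21 and 33 nt, chrI:142141-142173, plus strand). FPKM of the shorter RNA was 20021, 28674 and 22547 in the 80S libraries, 11636 and 15038 in the untranslated libraries and 10776 in the input. FPKM of the longer RNA was 3893, 4719.6 and 4441 in the 80S libraries, 37834 and 41330.5 in the untranslated libraries and 19501 in the input. The shorter RNA thus dominated every 80S library and the longer RNA every untranslated library. Lack of overlap between the fractions was a condition for naming this pair among the largest differences. The log2 difference between the fractions was -4.02 (SE 0.17, limma, adjusted p = 5.16e-06), or 16.2-fold. The longer leader adds ACTGAAGAGTCC, and the shorter RNA was itself higher in 80S than in untranslated RNA, by log2 0.83 (limma, adjusted p = 0.00651), while the longer was lower, by -3.19 (limma, adjusted p = 1.13e-05).

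HSP60, the chaperonin of the mitochondrial matrix, showed a shift of similar size (34 and 46 nt, chrXII:665003-665048, minus strand). Its shorter RNA had FPKM of 3676, 3253 and 3627 in the 80S libraries, 2239.7 and 1669 in the untranslated libraries and 7395 in the input. The longer RNA stood at 1051, 964 and 1052 in the 80S libraries, 7124 and 10375 in the untranslated libraries and 2109.8 in the input. Expressed as the share of the gene's FPKM, the longer RNA made up 22.2%, 22.9% and 22.5% in the 80S libraries, 76.1% and 86.1% in the untranslated libraries and 22.2% in the input, so its share in 80S was that of the starting pool and its share in untranslated RNA was well above it. The log2 difference between 80S and untranslated RNA was -3.93 (SE 0.30, limma, adjusted p = 2.83e-05), that between 80S and the single input library 0.03, and that between untranslated RNA and that library 3.96.

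CUL3, a cullin of ubiquitin ligases (17 and 28 nt, chrVII:500104-500131, plus strand), and RCN1, a regulator of calcineurin (28 and 40 nt, chrXI:154452-154491, minus strand), followed the same direction. The longer CUL3 RNA held 24.2%, 25.1% and 28.0% in the 80S libraries, 84.6% and 78.9% in the untranslated libraries and 56.2% in the input of the gene's FPKM. For RCN1 the share of the longer RNA was 7.89%, 9.48% and 8.82% in the 80S libraries, 52.1% and 52.4% in the untranslated libraries and 22.6% in the input. In both genes the input share lay between those of the fractions. The log2 differences were -3.71 (SE 0.23, limma, adjusted p = 1.47e-05) for CUL3 and -3.52 (SE 0.20, limma, adjusted p = 1.05e-05) for RCN1. In each gene the shorter RNA was higher in 80S than in untranslated RNA, by log2 2.21 and 2.23, and the longer was lower, by -1.50 and -1.29.

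FUR1, the uracil phosphoribosyltransferase (43 and 54 nt, chrVIII:362061-362114, plus strand), had a longer RNA with 11.1%, 15.6% and 10.8% in the 80S libraries, 54.3% and 71.8% in the untranslated libraries and 27.7% in the input of the gene's FPKM. On the log2 scale the pair differed by -3.62 (SE 0.37, limma, adjusted p = 0.000102). RIM101, a transcriptional repressor that acts in the alkaline pH response (87 and 98 nt, chrVIII:51013-51110, plus strand), differed from these pairs in that both of its RNAs were higher in 80S. FPKM of the 87 nt leader was 12727, 14660.2 and 15881 in the 80S libraries, 812 and 491 in the untranslated libraries and 6183 in the input. FPKM of the 98 nt leader was 16173, 20786 and 19453 in the 80S libraries, 7798 and 5305 in the untranslated libraries and 14379 in the input. Both RNAs were abundant in 80S, and the longer one was also present in untranslated RNA, where its lowest value exceeded the highest of the shorter RNA. The log2 difference of the pair was -2.96 (SE 0.17, limma, adjusted p = 1.16e-05). For NAM9, a protein of the small mitochondrial ribosomal subunit (94 and 106 nt), the longer RNA made up 21.6%, 21.5% and 27.8% in the 80S libraries, 76.7% and 58.2% in the untranslated libraries and 83.5% in the input. Its log2 difference was -2.80 (SE 0.37, limma, adjusted p = 0.000378), and -2.18 or -3.42 without untranslated replicate 1 or 2.

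The largest opposite difference, with the added bases on the side of 80S, was that of OST5, a subunit of the oligosaccharyltransferase that attaches glycans to proteins in the endoplasmic reticulum (34 and 46 nt, chrVII:73159-73204, minus strand). FPKM of its shorter RNA was 3599.8, 3752 and 3729 in the 80S libraries, 19472 and 16571 in the untranslated libraries and 11773 in the input. FPKM of its longer RNA was 5018, 3308 and 5239 in the 80S libraries, 1417 and 322 in the untranslated libraries and 5067 in the input. The shorter RNA was several times more abundant in untranslated RNA than in 80S in every library, and the longer RNA was the reverse, although its untranslated values differed between replicates. The log2 difference was 4.99 (SE 0.52, limma, adjusted p = 0.000115), or 31.8-fold, and 5.94 or 4.04 without untranslated replicate 1 or 2.

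QCR7, a subunit of the respiratory cytochrome bc1 complex (31 and 42 nt, chrIV:1496549-1496590, minus strand), gave a pattern with tighter replicates. The shorter RNA had FPKM of 3158, 2637 and 4152 in the 80S libraries, 8729 and 6194 in the untranslated libraries and 13006 in the input. The longer RNA stood at 6512, 6772 and 8578 in the 80S libraries, 1129 and 1047 in the untranslated libraries and 3568 in the input. No untranslated value of the longer RNA came near its 80S values, and the order was inverted for the shorter RNA. The log2 difference was 3.91 (SE 0.22, limma, adjusted p = 9.95e-06). Against the single input library the log2 difference of the QCR7 pair was 3.02 in 80S and -0.89 in untranslated RNA.

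GDH3, a glutamate dehydrogenase (38 and 50 nt, chrI:31517-31566, plus strand), and the uncharacterised gene YBR197C (28 and 40 nt, chrII:615857-615896, minus strand) also had longer RNAs that leaned to 80S. The longer GDH3 RNA made up 89.9%, 90.0% and 88.0% in the 80S libraries, 44.2% and 39.6% in the untranslated libraries and 85.4% in the input. The longer YBR197C RNA made up 42.1%, 45.8% and 43.8% in the 80S libraries, 4.22% and 7.61% in the untranslated libraries and 6.88% in the input. For GDH3 the 80S share was near that of the input and the untranslated share below it, whereas for YBR197C the untranslated share was near the input and the 80S share above it. The log2 differences between 80S and untranslated RNA were 3.53 (SE 0.22, limma, adjusted p = 1.51e-05) and 3.70 (SE 0.30, limma, adjusted p = 4.06e-05). In both genes it was the shorter RNA that changed most between the fractions, by log2 -2.93 and -3.19, and the longer RNA did not pass the threshold.

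SHC1, an activator of chitin synthesis in sporulation, has long leaders of 99 and 111 nt (chrV:351587-351697, plus strand), and the longer RNA made up 96.0%, 97.2% and 95.8% in the 80S libraries, 61.8% and 82.9% in the untranslated libraries and 52.8% in the input. Its log2 difference was 3.24 (SE 0.44, limma, adjusted p = 0.000416), and 2.45 or 4.03 without untranslated replicate 1 or 2. SEC5, of the exocyst that tethers secretory vesicles (54 and 65 nt), had a rare longer RNA that made up 15.8%, 17.4% and 14.9% in the 80S libraries, 1.94% and 3.48% in the untranslated libraries and 5.28% in the input. Its log2 difference was 2.83 (SE 0.27, limma, adjusted p = 8.32e-05). PMT2, a protein mannosyltransferase whose longer leader (88 and 100 nt) begins with a run of A, and ARP6, an actin-related protein of the chromatin remodeller SWR1 (21 and 33 nt), stood at 2.70 (SE 0.43, limma, adjusted p = 0.00102) and 2.55 (SE 0.27, limma, adjusted p = 0.000124). The PMT2 value was 3.47 or 1.93 without untranslated replicate 1 or 2.

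For 52 pairs the difference between the fractions did not pass the threshold, and for 31 of these the whole 95% confidence interval lay within 1 of 0 on the log2 scale, that is, within 2-fold. The narrowest bounds were those of VPS55, of late endosome traffic (82 and 94 nt, chrX:519186-519279, minus strand), whose added bases and following bases form a run of AC repeats. Its shorter RNA had FPKM of 10293, 11475 and 10827 in the 80S libraries, 25135 and 28740.2 in the untranslated libraries and 9414 in the input. Its longer RNA stood at 10434, 11106 and 9077 in the 80S libraries, 23852 and 28546 in the untranslated libraries and 16879 in the input. How reads from the AC repeats were divided between the 2 RNAs of VPS55 is not given. Both RNAs were lower in every 80S library than in either untranslated library, and to nearly the same degree. The log2 difference was -0.05 (95% interval -0.42 to 0.32). LYS20, a homocitrate synthase of lysine synthesis (26 and 38 nt), likewise had both RNAs lower in 80S, by log2 -1.87 and -1.91, and a difference of -0.04 (95% interval -0.57 to 0.49). In ARC15, of the Arp2/3 complex that nucleates actin (27 and 38 nt), and in YJL068C (23 and 35 nt), both RNAs were higher in 80S, with differences of 0.04 (95% interval -0.46 to 0.53) and 0.06 (-0.36 to 0.48). Neither RNA of TRM11, of a tRNA methyltransferase (17 and 28 nt), passed the threshold, and the pair differed by -0.16 (-0.58 to 0.26).

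Among the 78 pairs 11 nt apart, the 6 with the highest mean FPKM are described here. All 6 were called, against 68.1% of all pairs, which were not matched for abundance. RIM101 and SEC5 are given above. VBA2, a vacuolar permease of basic amino acids (34 and 45 nt), had both RNAs higher in 80S and a longer RNA with 56.7%, 46.6% and 45.9% in the 80S libraries, 75.1% and 79.9% in the untranslated libraries and 47.9% in the input, and its pair differed by log2 -1.81 (SE 0.25, limma, adjusted p = 0.000485). MMP1, an S-methylmethionine permease (16 and 27 nt), had both RNAs lower in 80S, with a longer RNA at 53.4%, 49.3% and 52.5% in the 80S libraries, 33.1% and 41.1% in the untranslated libraries and 35.6% in the input and a difference of 0.87 (SE 0.21, limma, adjusted p = 0.00676). PGU1, a secreted pectin-degrading enzyme (57 and 68 nt), was at 83.4%, 84.5% and 85.6% in the 80S libraries, 51.7% and 63.9% in the untranslated libraries and 71.8% in the input and 1.98 (SE 0.24, limma, adjusted p = 0.000266). SRB6 is described with the upstream ATGs.

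Taken RNA by RNA, 220 of the 306 members (71.9%) differed between 80S and untranslated RNA in limma over the whole pool, against 70.4% of all RNAs. The members were higher in 143 cases and lower in 77, against 38.6% and 31.8% of all RNAs. Their median log2 change was 0.45, against 0.18 for all RNAs, and 0.31 against 0.03 when each library was rescaled by median ratios, with 124 higher and 86 lower. The shorter RNAs had 69 higher and 35 lower, and the longer RNAs 74 and 42. Both RNAs of a gene were higher in 43 pairs (28.1%) and both lower in 14 (9.15%), against 17.9% and 14.8% of the 1175 genes with 2 leaders more than 12 nt apart. In 23 pairs (15.0%) 1 RNA was higher and the other lower, against 14.7% of those genes. A single RNA passed in 60 pairs (39.2%) and neither in 13 (8.50%), against 42.5% and 10.1% of those genes. Of the 57 pairs with both RNAs called in the same direction, the 2 RNAs differed from each other in 28 (49.1%, against 42.2% of the 384 such genes more than 12 nt apart). Across the 153 genes Pearson's r between the log2 ratio of the shorter and of the longer RNA was 0.33 and Spearman's rho 0.36, as a description of points that share the same libraries.

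The added stretch held the A of an ATG in 6 of 152 pairs (3.95%), searched on the RNA strand, against 6.72% of all leaders with an ATG that starts in the first 12 bases. All 6 pairs passed the threshold, the longer leader being lower in 3 and higher in 3, against a background of 68.1%. In SRB6, BUB1 and YBR197C the shorter leader already held 1 ATG, so these pairs do not set an ATG against none. The fraction does not record at which codon a ribosome stands. In 4 pairs the ATG was the very first triplet of the longer leader in the reference sequence. Their sequences follow with that of SPE4, whose ATG starts at base 2.
SPE4: GATGAGACAGGCaggataaagtgacagatt
PUT7: ATGTAAACTCTgaacatctaatagacta
SRB6: ATGGGCTAATCataacagattgtgatgata
BUB1: ATGGAAAGATTattgacggttcctattgtt
RAD2: ATGAAGAAAAGCattttcgggagaacgcca

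In SPE4, PUT7, SRB6 and BUB1 the reading frame from this ATG closed before the start codon, and in PUT7 the stop codon followed at once (ATGTAA). For SPE4, the spermine synthase (30 and 42 nt, chrXII:433726-433767, minus strand), the longer RNA made up 20.9%, 20.8% and 17.4% in the 80S libraries, 61.2% and 72.8% in the untranslated libraries and 21.1% in the input, and the log2 difference was -3.07 (SE 0.26, limma, adjusted p = 4.90e-05). For PUT7, a mitochondrial protein of proline metabolism (17 and 28 nt, chrXII:705158-705185, plus strand), it made up 5.35%, 5.56% and 5.37% in the 80S libraries, 20.0% and 30.7% in the untranslated libraries and 15.8% in the input, with a difference of -2.53 (SE 0.27, limma, adjusted p = 0.000149). For SRB6, a Mediator subunit (50 and 61 nt, chrII:723209-723269, plus strand), it made up 39.5%, 44.7% and 44.2% in the 80S libraries, 72.1% and 69.6% in the untranslated libraries and 52.9% in the input, with a difference of -1.70 (SE 0.18, limma, adjusted p = 0.000125). In these 3 genes the shorter RNA was higher and the longer lower in 80S. BUB1, a kinase of the spindle checkpoint (42 and 53 nt, chrVII:875110-875162, minus strand), went the other way, with a longer share of 32.2%, 31.5% and 35.5% in the 80S libraries, 14.3% and 11.9% in the untranslated libraries and 32.9% in the input and a difference of 1.72 (SE 0.21, limma, adjusted p = 0.000284).

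In the remaining 2 pairs the frame ran past the start codon. RAD2, a nuclease of nucleotide excision repair (28 and 40 nt, chrVII:1010767-1010806, minus strand), had FPKM of the longer RNA of 2671, 2020.5 and 2742 in the 80S libraries, 513 and 237 in the untranslated libraries and 4485 in the input, while the shorter stood at 4045, 3516 and 3805 in the 80S libraries, 2988 and 3288 in the untranslated libraries and 2129.5 in the input. The untranslated values of the longer RNA lay several times below its 80S values, and those of the shorter lay just below them. Its log2 difference was 2.54 (SE 0.36, limma, adjusted p = 0.000559), and 3.17 or 1.92 without untranslated replicate 1 or 2. YBR197C, given above, gained ATGs at bases 4 and 9, with frames that both ran past the start codon, and its difference was 3.70. In both genes the longer leader lay on the side of 80S relative to untranslated RNA. Against the single input library the 2 genes differed. The longer RAD2 RNA was above the shorter in the input and below it in every 80S library. The 80S share of the longer YBR197C RNA lay above its input share.

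Base composition of the added stretch varied with the direction. In the 59 pairs with the lowest G and C content of the added bases (8.33% to 27.3%), 28 had the longer leader called higher and 10 had it called lower, with a median log2 difference of 0.64. In the 56 pairs of intermediate content (33.3% to 41.7%) these counts were 18 and 22, with a median of -0.24. In the 37 richest pairs (45.5% to 58.3%) they were 7 and 16, with a median of -0.50. Over all 2008 pairs, of any content, the longer leader was called higher in 34.5% and lower in 33.6%. Spearman's rho between G and C content and the difference was -0.32 over 152 pairs, between -0.30 and -0.33 when the fractions were represented by a single 80S or a single untranslated library, and -0.27 over the 1154 pairs of genes with 2 leaders more than 12 nt apart. The points share libraries, and these values are descriptions without a test. C alone gave -0.28 and G alone -0.05, while A gave 0.23 and T 0.06. Against the input the same content gave -0.14 for 80S and 0.13 for untranslated RNA. Among the first 10 pairs printed above the directions overlapped in this content. With the longer RNA lower, it was 50.0% in EFB1, 33.3% in HSP60 and RCN1, 27.3% in CUL3 and 18.2% in FUR1. With the longer RNA higher, it was 33.3% in OST5 and GDH3, 25.0% in YBR197C, 18.2% in QCR7 and 8.33% in SHC1.

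Predicted folding, the first base in the reference sequence and the length of the leader are given in the same way. The counts stand against 34.5% of all pairs with the longer leader called higher and 33.6% with it called lower. The energy of the leader alone was unchanged by the added bases in 58 pairs, of which 23 had the longer leader higher and 16 lower (median difference 0.14). It changed by less than 2 kcal/mol in 50 pairs, with 15 higher and 17 lower (median -0.26). It was lowered by 2 kcal/mol or more in 44 pairs, with 15 higher and 15 lower (median -0.19). In the 92 pairs whose RNAs both began with A, 34 were higher and 28 lower (median 0.05). In the 33 pairs whose shorter RNA alone began with A, 10 were higher and 12 lower (median -0.42). In the 22 whose longer RNA alone began with A, 7 were higher and 6 lower (median 0.12). In the 5 pairs with A in neither place, 2 were higher and 2 lower (median -0.21). The rho of the difference with the folding change was 0.02 and with the length of the shorter leader 0.04. By length the medians were not ordered: -0.16 for 55 pairs with a shorter leader of 14 to 27 nt, 0.60 for 48 pairs of 28 to 44 nt (23 higher and 15 lower) and -0.17 for 49 pairs of 45 to 100 nt.

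The starting pool was measured in 1 input library, whose own spread is unknown and was assumed to be that of the fractions, so calls against it have no replicate check on that side. Under this assumption the balance in 80S differed from the input toward the longer RNA in 41 pairs and toward the shorter in 27. Among all pairs these shares were 28.2% and 21.8%. In all, the balance between the 2 RNAs differed in 68 pairs (44.4%, against 50.0% of all pairs). This count was 44 with the replicate number as a block (24 and 20, with 39.4% of all pairs called). Without 80S replicate 3 it was also 44. It rose when untranslated replicate 1 or replicate 2 alone was left out, which leaves 1 library in that group. In untranslated RNA the balance differed in 84 pairs (54.9%, against 51.8%), 45 toward the longer and 39 toward the shorter. Over all pairs these directions held 29.2% and 22.6%. The median size of the difference was 0.71 in 80S and 1.07 in untranslated RNA on the log2 scale, against 0.94 and 1.03 for all pairs. These comparisons share libraries with each other. RNA by RNA, 71 members were higher and 100 lower in 80S than in the input (55.9% called, against 53.3% of all RNAs). Over all RNAs 20.1% were higher and 33.2% lower. In untranslated RNA 43 members were higher and 126 lower (55.2%, against 51.8%), with 17.4% and 34.4% over all RNAs. After rescaling by median ratios the splits of the members were 82 and 82 in 80S, and 72 and 88 in untranslated RNA. The excess of lower RNAs was thus absent after rescaling in 80S, and smaller but still present in untranslated RNA.

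For some pairs the balance in 80S differed from untranslated RNA with one sign and from the single input library with the other. PAC10, a prefoldin subunit (31 and 43 nt), had a longer RNA with 16.0%, 21.3% and 20.1% in the 80S libraries, 58.3% and 54.9% in the untranslated libraries and 8.99% in the input. Its log2 difference was -2.47 (SE 0.25, limma, adjusted p = 0.000108) between the fractions and 1.25 between 80S and input. MDJ2, a mitochondrial cochaperone (71 and 83 nt), stood at -1.06 and 0.97 in the same order. PUB1, an RNA-binding protein that associates with polyadenylated mRNAs (47 and 58 nt), stood at 1.44 and -1.06, and RAD2 at 2.54 and -1.70. These 4 genes were chosen for the opposite signs. Such signs by themselves place both fractions on the same side of the input, with the untranslated fraction farther, so this is no separate result.

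Ribosomal protein genes of the cytosol were the only list fixed in the design with 5 or more pairs. Of 10 pairs, 4 had the longer leader lower, 1 had it higher and 5 did not pass, against 33.6% lower and 34.5% higher among all pairs, with a median log2 difference of -0.41 against 0.01 for all pairs. RPL40A, which encodes a fusion of ubiquitin with a ribosomal protein (15 and 26 nt), was lowest at -1.72 (SE 0.27, limma, adjusted p = 0.000954), with a longer share of 33.8%, 27.4% and 39.6% in the 80S libraries, 64.5% and 60.0% in the untranslated libraries and 87.6% in the input. RPL34B stood at -1.22, RPL11A at -0.84 and RPS7B at -0.72. RPS16B (18 and 30 nt) was highest at 1.72 (SE 0.25, limma, adjusted p = 0.000614). RPL43B and RPS17B had both RNAs higher in 80S, by log2 2.35 and 2.24, and 1.68 and 1.46, and differences of -0.11 and -0.21 that did not pass. The genes named here belong to duplicated pairs of yeast genes with nearly identical coding sequences, and how reads shared with the partner were counted is not given. Pairs of other lists were few, so that their counts stand against a background of 68.1% called: 3 of mitochondrial ribosomal proteins (MRPS9 at -1.36, MRPL4 at -1.09 and RSM18 at 1.54, all called), 3 of the respiratory chain and ATP synthase (ATP16 at -1.20, COX5A at 0.98 and QCR7, all called), 4 of amino acid synthesis (PRO3 at -1.04, ASN1 at 1.77 and GDH3 called, LYS20 not) and 3 of DNA repair (RAD2 and RAD4 at 2.54 and 2.01 called, RAD1 at 0.66 not). Lists were drawn up by gene symbol, and that of mitochondrial ribosomal proteins leaves out NAM9, given above, which was called at -2.80.

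At 11, 12 and 13 nt, on both sides of the limit, the median size of the difference was 0.96, 1.06 and 0.98 on the log2 scale. The share of pairs called was 66.7%, 65.3% and 57.1%, and 10.3%, 28.0% and 19.5% of 78, 75 and 77 pairs were called and at least 4-fold. The 2 largest differences at 12 nt were OST5 and EFB1, and the 2 largest at 13 nt were ENB1, a siderophore transporter (5.45), and MZM1, an assembly factor of the bc1 complex (4.72). Set beside wider spacings without a test, the share of pairs called was 66.0% here, 62.7% of 552 pairs 13 to 20 nt apart, 70.1% of 482 pairs 21 to 40 nt apart and 66.0% of 141 pairs more than 40 nt apart, with median sizes of 1.02, 0.97, 1.19 and 1.22. Pearson's r between the ratios of the shorter and the longer RNA was 0.33, 0.37, 0.23 and 0.32 in the same order, and the 2 RNAs had ratios of the same sign in 68.0%, 62.0%, 59.5% and 61.7% of genes.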

How the data were processed

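Members and gene lists were chosen with earlier results of these data known. The authors deposited FPKM, 1 value for each RNA in each of 6 libraries, per the file headers. The submitters' processing notes list cutadapt and STAR with no version. The program behind FPKM, its reference and its handling of shared reads were not given in the sources used here. Depth is unknown, so no counting interval is given.

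Leader length was read from the number in each RNA name. For every gene with 2 or more RNAs, log2(FPKM + 1) of the shortest leader was subtracted from that of the longest, library by library. The fit used limma 3.58.1 (R 4.3.3) on the 6 libraries, with a mean per group and a variance trend on the mean log2 FPKM of the pair (residual df 3, prior df 4.46), with Benjamini-Hochberg adjustment at 0.05 over 2008 pairs. Single RNAs were fitted likewise over 6962 RNAs (prior df 5.15). The log2(FPKM + 1) scale understates changes of low RNAs. A filter, mean FPKM of at least 10 and input above 0, applied to both. The code was tested on simulated data. Leader energies came from ViennaRNA 2.7.2; other steps used Python 3.11.15 with scipy 1.17.1, pandas 2.3.3 and numpy 2.4.6.

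Named pairs were the 8 largest called differences in each direction with no overlap between fractions, the 5 with the narrowest bounds around 0, the 6 most abundant at 11 nt, those that gain an ATG, the extremes of lists with 5 or more pairs, the largest with oppositely called RNAs or at 12 and 13 nt, and the 4 largest with opposite signs against untranslated RNA and input. Alternatives were pseudocounts of 0.1 and 100, a minimum mean FPKM of 500, no filter, no trend, a replicate block, no input library, fitting genes with exactly 2 RNAs, rescaling by median ratios and leaving out each fraction library. A trend on the mean difference was added after the data were seen.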

Additional observations from a re-analysis of the deposited data

How the results depend on the processing

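The 101 pairs called between 80S and untranslated RNA became 98 to 104 under other pseudocounts, filters, trends, sets of fitted pairs or without the input, and 87 to 104 when 1 library was left out. With the replicate number as a block they became 98. The block lowered the pairs called between 80S and input from 68 to 44, and leaving out 1 library gave 44 to 81. The labels give the numbers but no shared source; the deviations of 80S and untranslated libraries 1 and 2 from their means had r = 0.29 over 2008 pairs, with only 2 shared numbers, and the block moved no other count of calls by over 1.5 times. Of 33 named pairs, 29 kept their direction and their side of the threshold in every alternative. The exceptions were uncalled pairs near 0, which changed sign: VPS55 (0.029 with the replicate block, and -0.11 to 0.029 without 1 library), LYS20 (-0.28 to 0.20 without 1 library), ARC15 (-0.021 to 0.078) and YJL068C (-0.0081 to 0.13); none was called in any alternative. Rescaling a library cancels within a pair and was run for single RNAs only. Leaving out an untranslated library leaves 1, which is then assumed to vary like the other groups. Unknown depth limits what can be said of RNAs with low FPKM.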
